A study of Homo sapiens with 6 samples.

Results

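The EGR, NR4A and IER genes and SRF were taken as a group of immediate early transcription factors and response genes: EGR1, EGR2, EGR3, NR4A1, NR4A2, NR4A3, IER2, IER3, IER5 and SRF. They are listed by name as known members of these families, with no threshold on their values, and earlier results of these data were known when the group was drawn up. Each gene was read on its probe set with the highest mean over all arrays. Probe sets with 1 gene symbol were found for 9 of the 10, out of 18377 genes measured in all; EGR2 was not analysed here. The arrays measured total RNA of TF-1, an acute myeloid leukaemia line of erythroid and myeloid character that needs a cytokine to grow. One group of 3 arrays came from TF-1 cells transfected with human PRL-3, a protein tyrosine phosphatase encoded by PTP4A3, and 3 came from TF-1 cells transfected with a control vector, named pEGFP in the labels. Culture medium for both groups was RPMI with serum and human interleukin-3 at 5 ng/ml, so every array describes cells under continued cytokine and serum and none describes cells after a timed stimulus. The labels do not say whether each line was 1 clone or a pool, which promoter drove PRL-3, or whether arrays of the same group were separate cultures. P-values here thus reflect array-to-array spread alone, and that spread may be technical.

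Immediate early genes are switched on within minutes of a growth signal, without new protein synthesis, and their RNA is usually short-lived. SRF, the serum response factor, binds the CArG box in the promoters of many of them together with ETS factors that ERK phosphorylates, while CREB acts through the cAMP response element. EGR proteins are zinc finger factors that bind GC-rich sites and are held back by the NAB co-repressors. NR4A proteins are orphan nuclear receptors that bind DNA as monomers or as dimers and do not depend on a known natural ligand. In blood cells EGR1 is known for a part in monocyte differentiation, and NR4A1 and NR4A3 for suppressing myeloid leukaemia in mice.

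The promoter windows of 3 of these genes are shown because they hold the sites through which SRF and CREB are known to act. Being picked for these sites, they do not stand for the whole group. They are RefSeq windows of GRCh38.p14, from 250 bases before to 50 after the gene's start, each 300 bases and on the plus strand: EGR1 at chr5:138465229-138465528, SRF at chr6:43171019-43171318 and NR4A3 at chr9:99821635-99821934. Capitals mark matches on either strand to the CArG box, to the cAMP response half-site TGACG, and to the EGR site GCGNGGGCG.
EGR1: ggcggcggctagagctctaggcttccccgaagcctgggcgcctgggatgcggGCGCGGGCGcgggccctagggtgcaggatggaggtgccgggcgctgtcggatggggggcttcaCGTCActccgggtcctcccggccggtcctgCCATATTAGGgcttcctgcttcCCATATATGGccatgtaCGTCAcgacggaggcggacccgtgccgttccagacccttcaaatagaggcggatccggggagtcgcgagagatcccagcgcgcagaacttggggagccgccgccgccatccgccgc
SRF: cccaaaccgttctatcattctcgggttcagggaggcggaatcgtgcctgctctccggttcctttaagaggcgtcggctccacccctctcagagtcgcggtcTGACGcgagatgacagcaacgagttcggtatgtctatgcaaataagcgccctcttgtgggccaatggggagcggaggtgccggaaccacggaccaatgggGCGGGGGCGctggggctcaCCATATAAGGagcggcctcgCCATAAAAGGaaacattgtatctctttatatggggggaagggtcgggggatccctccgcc
NR4A3: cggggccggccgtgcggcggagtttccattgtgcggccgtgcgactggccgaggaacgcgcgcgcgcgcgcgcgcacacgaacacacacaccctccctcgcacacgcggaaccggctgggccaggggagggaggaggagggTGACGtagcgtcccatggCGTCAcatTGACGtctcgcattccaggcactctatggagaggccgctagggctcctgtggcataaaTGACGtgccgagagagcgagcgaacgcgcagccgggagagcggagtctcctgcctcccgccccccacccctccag
The EGR1 window held 2 CArG boxes, beginning 105 and 83 bases before the start, and the SRF window held 2, beginning 30 and 10 bases before it. A CArG box was present in 1.29% of 35116 windows of the same length. The NR4A3 window held 4 TGACG half-sites, a motif present in 24.6% of windows, and no CArG box. EGR1 had 2 TGACG half-sites and SRF 1, and each had 1 EGR site, which 9.43% of windows hold. The full palindrome TGACGTCA, which contains the half-site, was in 1.85% of windows and the NR4A monomer site AAAGGTCA in 1.22%; neither was found in these 3. As the 3 were picked for their sites, the shares of all windows give no contrast with them. Windows of 7 of the 10 genes were used here, and none was of NR4A2. Those of IER5 and NR4A1 and a further SRF window, at chr6:43172146-43172445, held none of these motifs. The IER2 window held 1 TGACG and no CArG box. EGR2 had a CArG box and 2 TGACG half-sites in its window at chr10:62816317-62816616, and no CArG box in its others. Its window at chr10:62818726-62819025 held 1 EGR site, and that at chr10:62819118-62819417 held none of these motifs. These matches describe the letters in the windows and were not tested for binding.

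The transfected gene separated the groups. PTP4A3 read 10.81, 10.93 and 10.79 in PRL-3 arrays, against 7.92, 8.03 and 7.97 in control arrays (log2 intensity, as are all levels below), a difference of 2.87 ± 0.072 (log2, moderated standard error) with adjusted p = 2.24e-06 in limma. Array medians ran from 89.8 to 92.9 on the linear scale. A first principal component with 50.5% of the variance between arrays set the groups apart. A second, with 31.4%, ran within them: PRL-3 5 (score 17.7) and control 1 (11.9) lay at one end and control 3 (-18.9) at the other. Of 9 TF-1 markers measured 2 rose and 0 fell in limma, with 3 higher and 3 lower at an unadjusted p under 0.05. Over all genes 4.58% rose, 3.11% fell and 20.2% had an unadjusted p under 0.05 in either direction (limma). KIT, the stem cell factor receptor, averaged 8.71 in PRL-3 and 7.70 in control arrays (adjusted p = 0.000721, limma), and CSF2RA, a GM-CSF receptor chain, differed by 0.27 (adjusted p = 0.0407, limma). Other cytokine receptor genes of the list did not pass and went both ways. CSF2RB differed by -0.57 (adjusted p = 0.104), IL3RA by 0.49 (adjusted p = 0.162) and EPOR by -0.08 (adjusted p = 0.786, limma). CD34 averaged 9.84 in PRL-3 and 10.28 in control arrays, and GATA1 averaged 8.06 in PRL-3 and 8.14 in control arrays; neither passed. The 4 lymphocyte markers measured had means of up to 6.30 in PRL-3 and 6.42 in control arrays. The 5 fibroblast and epithelial markers had means of up to 7.29 in PRL-3 and 7.20 in control arrays, both from COL1A1. These COL1A1 means lay above those of NR4A2, 6.51 in PRL-3 and 5.91 in control arrays. The table has no detection call, so low levels have no known floor.

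Of the 9 genes, NR4A2 rose in PRL-3 arrays and the other 8 did not pass the test (limma across all 18377 genes, two-sided, Benjamini-Hochberg adjusted p under 0.05). That is 1 of 9 called, where 7.69% of all genes were called in either direction; 1 of 9 was higher, where 4.58% of all genes were, and 0 of 9 were lower, where 3.11% were. SRF was the 1 gene with a lower level at an unadjusted p under 0.05. An unequal-variance test of each gene by itself called 0 of the 9. Groups did not overlap in 2 of the 9, NR4A2 and SRF, against 24.3% of all genes, and 2 of 9 had an unadjusted p under 0.05, against 20.2%. The median difference of the 9 was 0.06, and that of all genes was -0.02 (log2, PRL-3 minus control). The median size of the difference, sign left out, was 0.09 in the 9 genes and 0.09 in all genes.

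**Figure D1:**
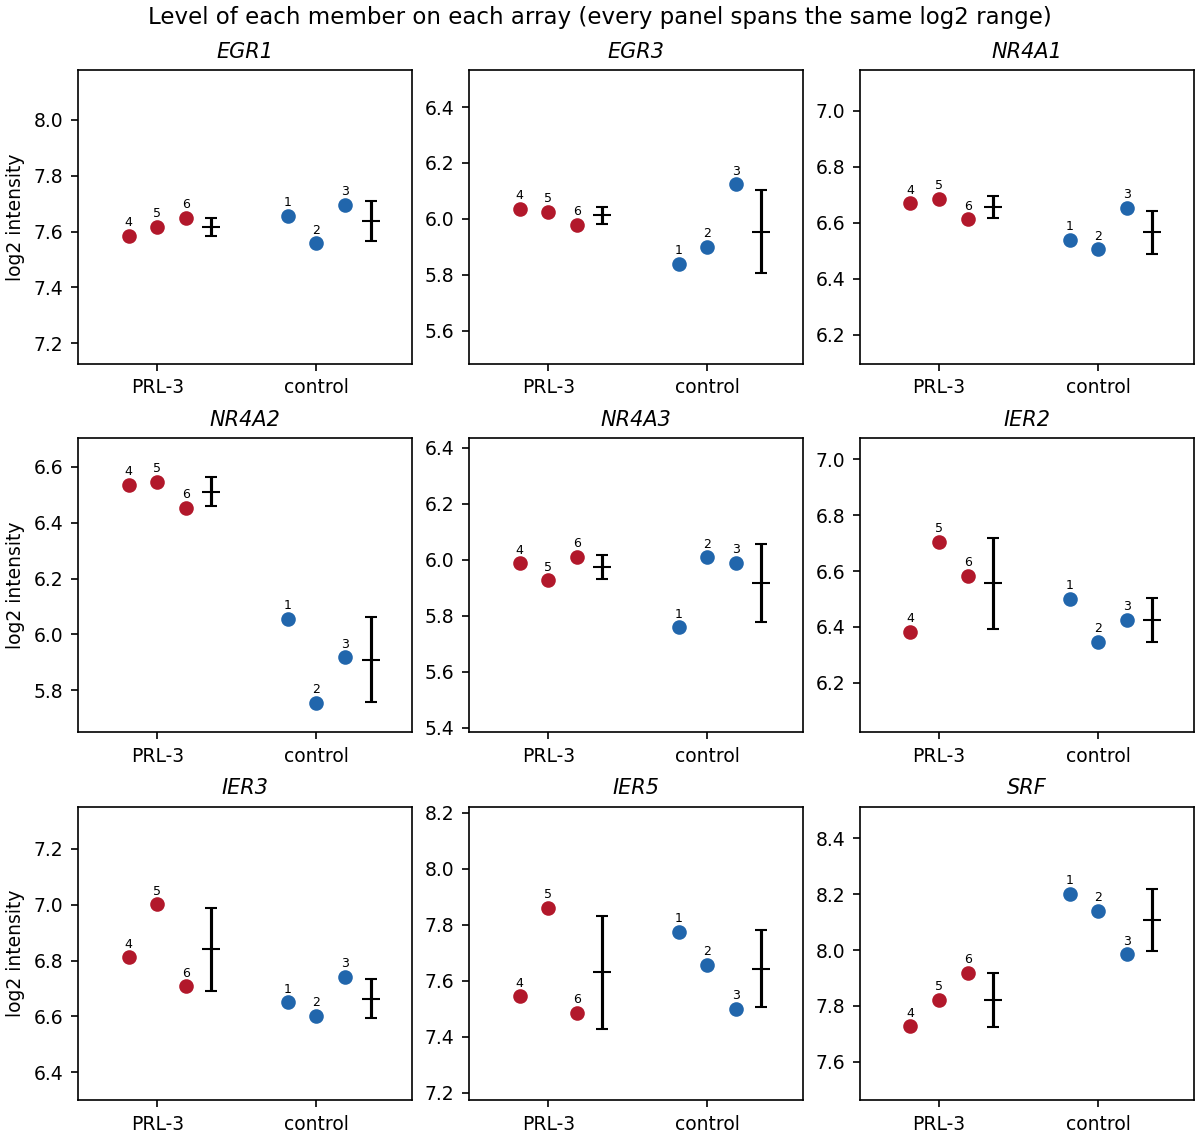
Log2 intensity (vertical axis) of the 9 measured genes on each of 3 PRL-3 arrays (red, numbered 4 to 6) and 3 control arrays (blue, numbered 1 to 3), with the group mean and SD as black bars beside the points. The PRL-3 and control points of NR4A2 and SRF do not overlap, with NR4A2 higher and SRF lower in PRL-3 arrays; the points of the other 7 genes overlap.

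NR4A2, also called NURR1, is a nuclear receptor best known for its need in midbrain dopamine neurons. It read 6.53, 6.55 and 6.45 in PRL-3 arrays, against 6.06, 5.76 and 5.92 in control arrays. Every PRL-3 array was above every control array, and the gap of the closest pair, PRL-3 6 and control 1, was 0.40, larger than the range of 0.30 over the 3 control arrays. On the linear scale the intensities were 92.7, 93.5 and 87.6 in PRL-3 arrays, against 66.6, 54.0 and 60.5 in control arrays. This was a 1.52-fold difference, 0.60 ± 0.088 on the log2 scale (SE), with a 95% interval of 0.40 to 0.80 and adjusted p = 0.00623 in limma. By exact permutation of the 6 labels (two-sided) p was 0.1, the lowest value that groups of 3 and 3 allow. RNA was taken from whole cultures, so more cells with the transcript and more transcript per cell cannot be told apart. The call was lost in the unequal-variance test (adjusted p = 0.214). Without any single array the difference lay between 0.52 and 0.67 and stayed past the threshold (adjusted p = 0.00718 to 0.0369, limma).

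Its paralogues did not pass the test. NR4A1, or NUR77, an early gene of antigen and growth factor signalling, read 6.67, 6.69 and 6.61 in PRL-3 arrays, against 6.54, 6.50 and 6.65 in control arrays. The ranges overlapped through control 3, and the difference of 0.09 ± 0.070 had adjusted p = 0.565 in limma. NR4A3, or NOR1, read 5.99, 5.93 and 6.01 in PRL-3 arrays, against 5.76, 6.01 and 5.99 in control arrays. Control 1 was the low array, the other controls lay among the PRL-3 arrays, and the difference was 0.06 ± 0.085 (adjusted p = 0.802, limma). The 95% intervals reached up to 0.25 for both, so rises of more than about that size in NR4A1 and NR4A3 lie outside them. The level of NR4A2 minus the mean of NR4A1 and NR4A3 on the same array was 0.21, 0.24 and 0.14 in PRL-3 arrays, against -0.09, -0.50 and -0.40 in control arrays (log2). This contrast, which differed by 0.53 between the groups, was added with the rise of NR4A2 already known and largely restates it. It is given as a description. Exact permutation of the 6 labels (two-sided) gave p = 0.1 for it, the lowest value that groups of 3 and 3 allow. As this test could give no lower value, it cannot decide whether NR4A2 and its paralogues differ in response, and no conclusion is drawn from it.

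Over the 6 arrays the genes whose pattern was most like that of NR4A2 were IFNK, interferon kappa (r = 0.998), MITF, a transcription factor of melanocytes and mast cells (0.995), TMEM167B (0.993), PCDH9, a protocadherin (0.992), and CRY1, a repressor of the circadian clock (0.991; Pearson). MITF read 7.33, 7.35 and 7.21 in PRL-3 arrays, against 6.95, 6.70 and 6.82 in control arrays, and like NR4A2 was lowest in control 2. In all 642 genes had r over 0.9 with NR4A2, and the points share the difference between the groups, so these values describe the 6 arrays only.

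EGR1, the zinc finger factor whose promoter is shown above, averaged 7.62 ± 0.031 in PRL-3 and 7.64 ± 0.071 in control arrays (SD, n = 3 each). It read 7.58, 7.62 and 7.65 in PRL-3 arrays, against 7.66, 7.56 and 7.70 in control arrays. The PRL-3 arrays lay inside the control range, and the difference was -0.02 ± 0.068 (log2, SE; adjusted p = 0.925, limma). Its 95% interval of -0.18 to 0.14 corresponds to 0.884- to 1.10-fold. EGR3, a relative known in lymphocyte and muscle spindle development, read 6.04, 6.02 and 5.98 in PRL-3 arrays, against 5.84, 5.90 and 6.12 in control arrays. Control 3 was above all PRL-3 arrays and the other controls below them, and the difference was 0.06 ± 0.087 (adjusted p = 0.799, limma).

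Within the PRL-3 group the IER genes had the widest ranges of the 9 genes, 0.32 for IER2, 0.29 for IER3 and 0.38 for IER5 (log2). IER2, a nuclear early response protein, read 6.38, 6.70 and 6.58 in PRL-3 arrays, against 6.50, 6.35 and 6.43 in control arrays, a difference of 0.13 ± 0.095 (adjusted p = 0.532, limma). IER3, or IEX-1, which influences apoptosis, read 6.81, 7.00 and 6.71 in PRL-3 arrays, against 6.65, 6.60 and 6.74 in control arrays. Here control 3 lay just above PRL-3 6, and the difference was 0.18 ± 0.090 (adjusted p = 0.339, limma). IER5, linked to the heat shock response, read 7.54, 7.86 and 7.48 in PRL-3 arrays, against 7.77, 7.66 and 7.50 in control arrays, a difference of -0.01 ± 0.116 (adjusted p = 0.972, limma). PRL-3 5 was the highest PRL-3 array for all 3 IER genes and for NR4A1 and NR4A2, that is for 5 of the 9 genes, and it also lay at the end of the second principal component. Whether that component has a part in the IER values was not tested. Without control 1 and PRL-3 5 the difference of NR4A2 was 0.66 (adjusted p = 0.00861, limma).

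IER3 was the gene of the 9 with more than 1 probe set. All 3 of its probe sets carry the same transcript accessions, so they are not independent. The other 2 differed by 0.22 and 0.18, beside 0.18 for the brightest. On the third in brightness the groups did not overlap, at 6.72, 6.93 and 6.74 in PRL-3 arrays, against 6.53, 6.55 and 6.63 in control arrays. None of the 3 passed when all 28869 probe sets were tested (adjusted p = 0.188 to 0.402, limma).

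SRF had the lowest unadjusted p after NR4A2. It read 7.73, 7.82 and 7.92 in PRL-3 arrays, against 8.20, 8.14 and 7.98 in control arrays. Every PRL-3 array was below every control array, by 0.07 for the closest pair, PRL-3 6 and control 3. The difference of -0.29 ± 0.085 (log2, SE), 0.82-fold, had a 95% interval of -0.48 to -0.09, which is not adjusted for the number of genes, and adjusted p = 0.0903 in limma, so SRF did not pass. It passed without control 3 (-0.35, adjusted p = 0.0445) and with array weights (-0.33, adjusted p = 0.00592, limma). In the other 12 of 14 settings SRF did not pass. Among these, adjusted p was lowest with quantile normalization (0.0561) and was 0.0855 among genes above the median level (limma). It was 0.130 with equal array medians and 0.140 with a variance trend (limma), and 0.284 in the unequal-variance test. The highest was 0.289, without PRL-3 4 (limma).

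**Figure D2:**
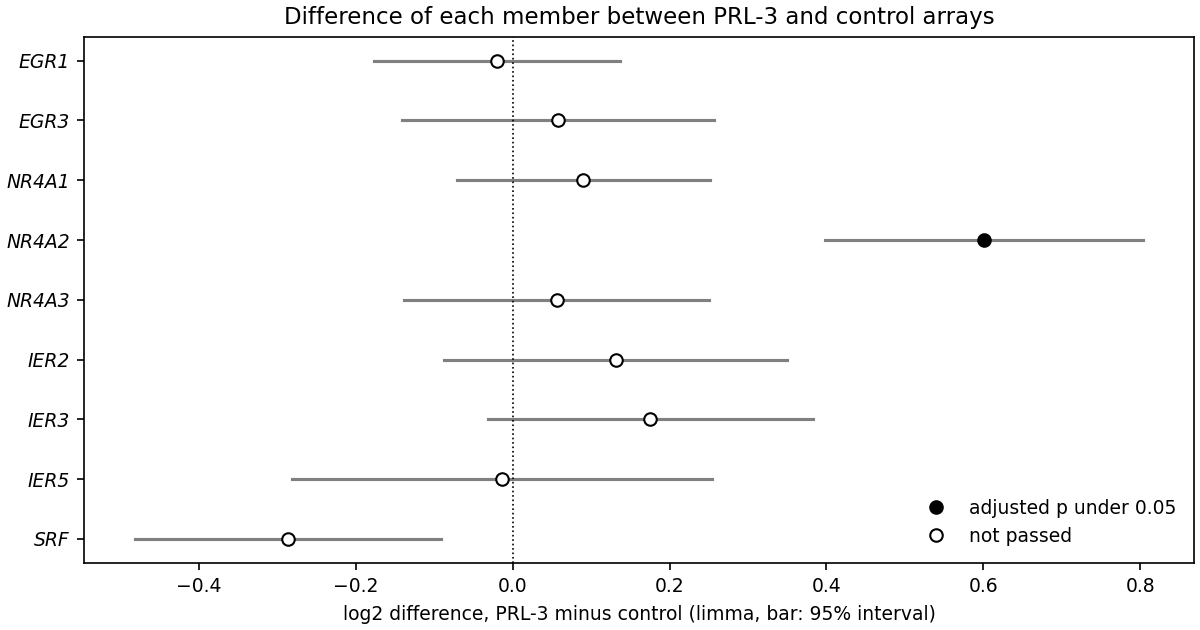
Log2 difference (horizontal axis, PRL-3 minus control) of each of the 9 genes with its unadjusted 95% interval from limma as a bar. NR4A2 (0.60) is the filled point, with adjusted p under 0.05; the interval of SRF (-0.48 to -0.09) also lies off 0, but SRF did not pass after adjustment, and the other 7 intervals cross 0.

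**Figure D3:**
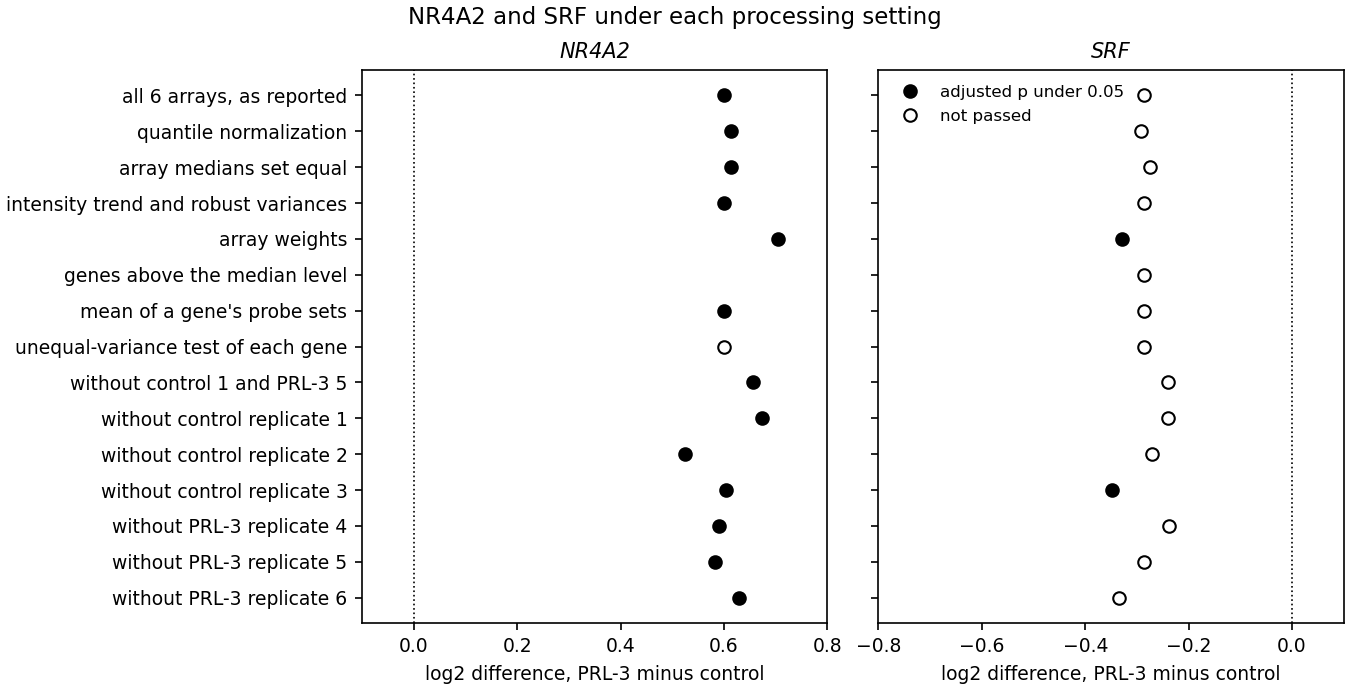
Log2 difference (horizontal axis, PRL-3 minus control) of NR4A2 on the left and SRF on the right under each setting tried (vertical axis), filled where adjusted p was under 0.05. NR4A2 stayed between 0.52 and 0.70 and was open for the unequal-variance test alone, while SRF stayed between -0.35 and -0.24 and was filled for array weights and without control 3; NR4A2 is not among the genes above the median level and has no point there.

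Around these genes, 7 lists of partners, regulators, targets and other early genes held 72 genes, of which 65 were measured on probe sets with 1 symbol; 5 rose and 1 fell, where 4.58% of all genes rose and 3.11% fell. Among 22 other immediate early genes 4 rose, 0 fell and 18 did not pass, beside the same shares of all genes. At an unadjusted p under 0.05, 8 were higher and 1 lower (20.2% of all genes in either direction), and the groups did not overlap in 11 of the 22 (24.3% of all genes). Their median difference was 0.08, and that of all genes -0.02. JUN, a subunit of AP-1, read 7.49, 7.58 and 7.74 in PRL-3 arrays, against 6.77, 6.71 and 6.58 in control arrays, with no overlap and a difference of 0.92 ± 0.088 (adjusted p = 0.00104, limma). CCN1, a secreted matrix protein and a classical serum response gene, rose by 0.72 and TRIB1, a pseudokinase, by 0.72 (adjusted p = 0.00153 and 0.0017, limma). DUSP1, a phosphatase that switches off MAP kinases, read 6.47, 6.83 and 6.44 in PRL-3 arrays, against 6.17, 6.10 and 6.16 in control arrays. Its difference of 0.44 passed narrowly (adjusted p = 0.0496, limma) and did not pass in any of the 6 fits with 1 array left out (adjusted p = 0.0504 to 0.185). In the unequal-variance test JUN had adjusted p = 0.111, CCN1 0.111 and TRIB1 0.116.

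None of the direct partners passed, where 7.69% of all genes were called in either direction and 20.2% had an unadjusted p under 0.05. In lists this short, counts of 0 called say nothing particular about the partners. Of 5 EGR partners and co-repressors 0 rose or fell in limma, with 1 at an unadjusted p under 0.05: WT1, a zinc finger factor that binds EGR-like sites, differed by -0.24 (adjusted p = 0.226). NAB2, the co-repressor that EGR1 itself is known to induce, read 6.75, 6.75 and 6.70 in PRL-3 arrays, against 6.67, 6.61 and 6.76 in control arrays, and was named after its values were seen. Of 3 retinoid X receptors, which pair with NR4A1 and NR4A2, 0 passed and 0 had an unadjusted p under 0.05; RXRB, lowest in p, differed by -0.14 (adjusted p = 0.681, limma). Of 5 SRF cofactors 0 passed and 0 had an unadjusted p under 0.05, and all 5 differences lay between -0.15 and -0.02, with MYOCD at -0.12 (adjusted p = 0.424, limma). Of 12 kinases and factors upstream 0 passed in limma and 2 were lower at an unadjusted p under 0.05. Among them CREB1, which binds the TGACG half-site, averaged 10.07 ± 0.067 in PRL-3 and 10.28 ± 0.070 in control arrays (SD, n = 3 each), a difference of -0.21 with adjusted p = 0.137 in limma; with array weights it passed (-0.23, adjusted p = 0.0188). The unequal-variance test called 0 genes of all 7 lists.

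Among targets, 1 of 11 cytoskeletal SRF genes fell (3.11% of all genes did) and 0 rose (4.58% of all genes did), with 0 higher at an unadjusted p under 0.05 and a median of -0.08. The one was TPM4, a tropomyosin, at 9.11, 9.34 and 9.21 in PRL-3 arrays, against 9.73, 9.52 and 9.56 in control arrays. It differed by -0.38 (adjusted p = 0.0405, limma) and did not pass with 1 array left out, except without PRL-3 5, where adjusted p was 0.0325; with equal array medians adjusted p was 0.0551 and with a variance trend 0.0529 (limma). Of 8 genes described as EGR targets 1 rose (4.58% of all genes did) and 0 fell (3.11% did), with 0 lower at an unadjusted p under 0.05 and a median of -0.08. With 1 call in each list, these counts say nothing particular about SRF or EGR targets. PDGFA, a growth factor chain, read 7.20, 7.46 and 7.35 in PRL-3 arrays, against 6.88, 6.84 and 6.51 in control arrays, a difference of 0.59 (adjusted p = 0.0203, limma), and did not pass without control 2 (adjusted p = 0.0639) or without PRL-3 6 (adjusted p = 0.0812).

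**Figure D4:**
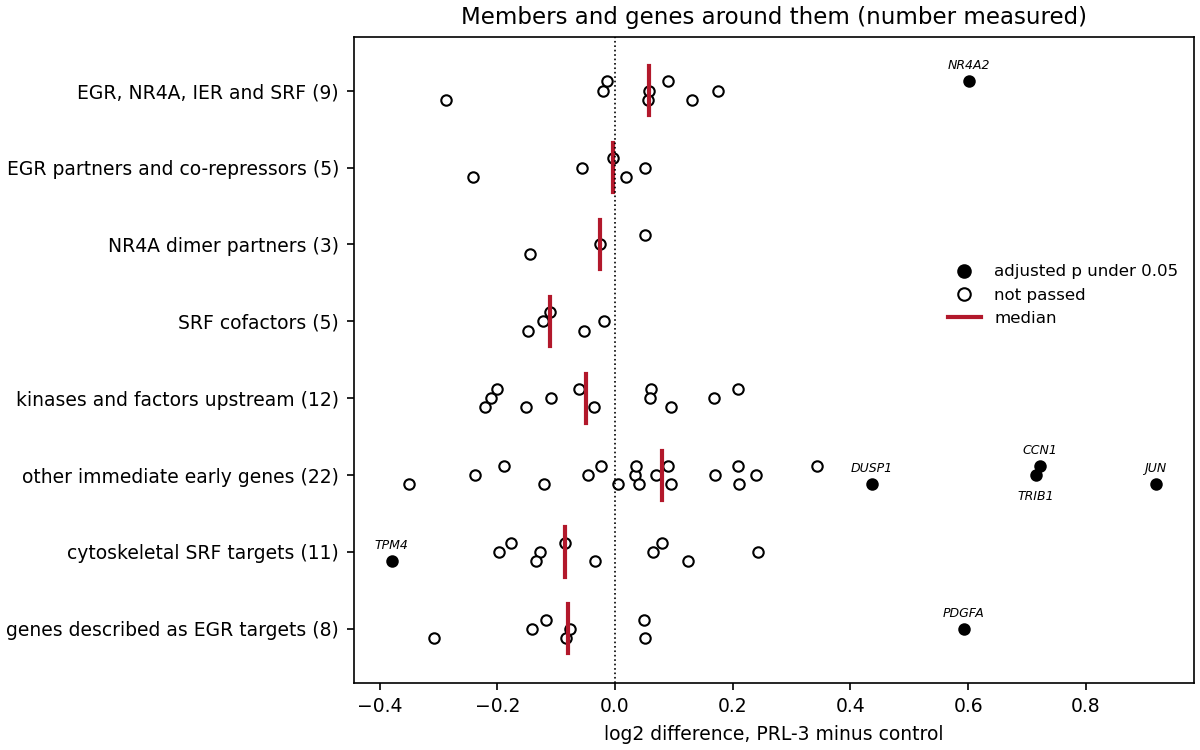
Log2 difference (horizontal axis, PRL-3 minus control) of the 9 genes and of each of 7 lists around them, 1 point per measured gene, filled where adjusted p was under 0.05, with the list median as a red line. The filled points are NR4A2, JUN, CCN1, TRIB1, DUSP1 and PDGFA on the higher side and TPM4 on the lower side, and the medians lie between -0.11 and 0.08.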

How the data were processed

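Expression arrays of TF-1 cells, 3 with PRL-3 and 3 with control vector, were used. The deposited table gives the linear intensity of 28869 probe sets on each array; per the labels' protocols, biotin-labelled cDNA was made from 100 ng total RNA with Nugen kits. The authors' summarisation, background correction and normalization of the intensities are not given in the sources used here. Since medians lay close together the values were taken as normalized, and a step between arrays, if one was used, would hide a shift common to most genes. Log2 of the intensity was taken with no offset. Of the probe sets 19310 had 1 symbol in the platform annotation, 1752 several and 7807 none; 19279 of the first matched RefSeq (GRCh38.p14) by Entrez identifier. Groups were compared with limma 3.58.1 (R 4.3.3, lmFit and eBayes), adjusted over 18377 genes; standard errors and 95% intervals are moderated. The fit was tested on simulated data. All 10 genes were named, and of each list up to 6 members past the threshold, or else the 1 with the smallest adjusted p. The members and lists were chosen with earlier results of these data known. List genes on probe sets with several symbols or none were not analysed here. The alternatives were 2 other scalings, a variance trend, array weights, probe sets averaged per gene, a filter on dim genes, an unequal-variance test, and leaving out arrays. The number of arrays limits the precision.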

Additional observations from a re-analysis of the deposited data

How the results depend on the processing

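PTP4A3 stayed past the threshold in all 14 alternatives, at 2.80 to 2.90. NR4A2 kept its direction in all 13 that hold it and passed in 12; the unequal-variance test left the difference at 0.601 with adjusted p = 0.214, where the spread is not shared between genes, and leaving out 1 array gave 0.52 to 0.67. The count of the group's genes called higher was 0 in that test and 0 among genes above the median level, a filter that removes NR4A2, and 1 with each array left out; the count lower was 1 with array weights and 0 to 1 with 1 array left out, the 1 being SRF. Small differences changed sign without passing: EGR1 to 0.034 with array weights, EGR3 to -0.0054 and NR4A3 to -0.00026 without control 1 and PRL-3 5. With 1 array left out EGR1 ran from -0.0596 to 0.0094, NR4A3 from -0.024 to 0.10 and IER5 from -0.13 to 0.059. Over all genes, 2122 were higher and 2303 lower with array weights, 7 and 4 in the unequal-variance test, and 388 to 792 and 178 to 747 with 1 array left out. In the 7 lists together 8 were higher and 12 lower with array weights, 0 and 0 in the unequal-variance test, 3 higher among genes above the median level, 0 lower with equal array medians and 0 lower with a variance trend. Leaving out 1 array gave 3 to 4 higher and 0 to 1 lower. Except where stated, the cause was not tested. Array weights are estimated from the spread of these same arrays, so the larger counts are not better evidence. No paired analysis was possible because the groups share no replicate numbers. Without a detection call, how far low signals such as those of EGR3, NR4A2 and NR4A3 lie above background is not known.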
